A study of Mus musculus with 24 samples.

Results

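The dual-specificity MAP kinase phosphatases are enzymes that remove phosphate from both the threonine and the tyrosine of the activation loop of a MAP kinase, and so switch the kinase off. The 9 genes described here were *Dusp1*, *Dusp4*, *Dusp5*, *Dusp6*, *Dusp7*, *Dusp8*, *Dusp10*, *Dusp16* and *Dusp3*, chosen by name from 18193 genes named on a mouse Affymetrix array. Each was read from the probe set with the highest mean signal over all arrays. A probe set entered the tests when at least 4 arrays, of any group, had its signal above their 40th percentile. By that filter 8 of the 9 members stood among the 14763 genes tested, and *Dusp5* did not, being above the percentile on 3 of 24 arrays. The family was proposed with results of these arrays known, *Dusp4* being its leading member. The p-values below therefore place each member within the whole table and are not independent evidence for the family.

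Hearts came from FVB/N mice of 3 genotypes. Nontransgenic mice (Ntg) were the controls, dnPI3K mice carried a heart-restricted transgene that lowers the activity of phosphoinositide 3-kinase (PI3K), and caPI3K mice carried a transgene, expressed in the heart, that raises it. The sources used here do not name the promoters of the transgenes. At 4 months of age mice were infarcted (MI, myocardial infarction) or sham operated, and the heart was removed 8 weeks afterwards, giving 6 groups of 4 arrays: Ntg sham, Ntg MI, dnPI3K sham, dnPI3K MI, caPI3K sham and caPI3K MI. The caPI3K MI samples bear a tag whose name reads caPI3K-sham, and were taken as MI by their titles and descriptions. By the labels, hearts were homogenized one by one. They do not state that every array holds another animal, and the spread behind the p-values may in part be technical.

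MAP kinases are the last step of three-tiered kinase cascades, and the phosphatases are grouped by the kinases they prefer and by where in the cell they act. *Dusp1*, *Dusp4* and *Dusp5* encode inducible enzymes of the nucleus, *Dusp6* and *Dusp7* cytoplasmic enzymes that prefer ERK, and *Dusp8*, *Dusp10* and *Dusp16* enzymes that prefer the stress kinases JNK and p38. *Dusp3* encodes VHR, a small enzyme of this class that lacks the kinase-binding domain of the others. In the heart, ERK signalling is known for its part in growth of the muscle cells, and JNK and p38 for responses to stress.

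*Dusp1* is known to be induced through cyclic AMP response elements, whose full form TGACGTCA is a palindrome that reads the same on both strands. The RefSeq promoter table (GRCm38.p6) held 8 of the 9 members, without *Dusp4*. In the 250 bases before the start site the element was present in 2 of these 8, *Dusp1* and *Dusp8*, against 1.55% of 32851 windows of that length. It was searched with its part in *Dusp1* known, so the count is a description and no test of the family. The forkhead motif GTAAACA, searched on both strands, was in none of the 8 windows and in 3.17% of all windows. The sites are shown because this motif was found in more than 1 member's window. They are on the minus strand, with the element in capitals, at chr17:26508598-26508625 for *Dusp1*, chr7:142095374-142095401 for the first site of *Dusp8* and chr7:142095330-142095357 for the second. The elements begin 143, 107 and 63 bases before the start site in that order. The start site of the *Dusp8* window lies inside the RefSeq span of the gene, which begins further upstream, so both *Dusp8* sites are within the annotated gene. The matches are letters in a window and not measured binding.
Dusp1 site: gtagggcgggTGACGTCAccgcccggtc
Dusp8 first site: cccgctccgcTGACGTCAcctgcccccg
Dusp8 second site: tggctgcaggTGACGTCAggggcttttt

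The arrays were alike in overall level. Median signal was 102 to 118 on 23 arrays and 150 on dnPI3K MI replicate 1, and pairs of arrays correlated at 0.91 to 0.964. All 7 cardiomyocyte markers were measured, with a mean log2 value of 15.09 to 15.63 on each array. Signal of Y-linked genes was present on 3 of the 4 caPI3K sham arrays and on no other array, and the main member values that rest on caPI3K sham arrays are also given without those 3. The sources used here do not state the sex of the animals. By the labels the 4 caPI3K sham arrays are numbered 1410 to 1417, and the highest number of any other array is 1191. Whatever that block of numbers stands for cannot be told apart from the caPI3K sham group.

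Levels are given as log2 of the signal plus a pseudocount of 11.2, which compresses differences of dim genes. Differences are between group means on that scale, with the standard error (SE) of a limma fit over all 6 groups and 14763 genes. A gene was called at an adjusted p below 0.05 (Benjamini-Hochberg over those genes), and the fold is 2 to the power of the difference. In whole hearts, fewer cells of a type and less RNA per cell cannot be told apart.

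Among the nuclear enzymes, *Dusp4* (also called MKP-2) was set apart by the dnPI3K genotype. In dnPI3K sham hearts its level was 9.20, 9.33, 9.13 and 8.81 on the 4 arrays, and in dnPI3K MI hearts 9.35, 9.24, 8.75 and 8.83. The 8 dnPI3K arrays thus lay between 8.75 and 9.35 whether or not the heart had been infarcted. In Ntg sham hearts it was 7.60, 7.05, 6.74 and 7.27, and in Ntg MI hearts 7.46, 7.13, 7.47 and 7.48. In caPI3K sham hearts it was 6.60, 6.52, 7.42 and 6.67, and in caPI3K MI hearts 6.03, 6.81, 7.27 and 7.06. Every dnPI3K array was above every one of the 16 other arrays, of which the highest read 7.60. A separation of that kind was found for 18 of 14763 genes (0.122%), and the gap of 1.14 for *Dusp4* was the widest of the 18. The others of the 18 included *Slc38a1* (gap 0.61), *Bex1* (0.57), *Tac1* (0.32), *Abcg2* (0.19) and *Nppa* (0.09).

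**Figure D1:**
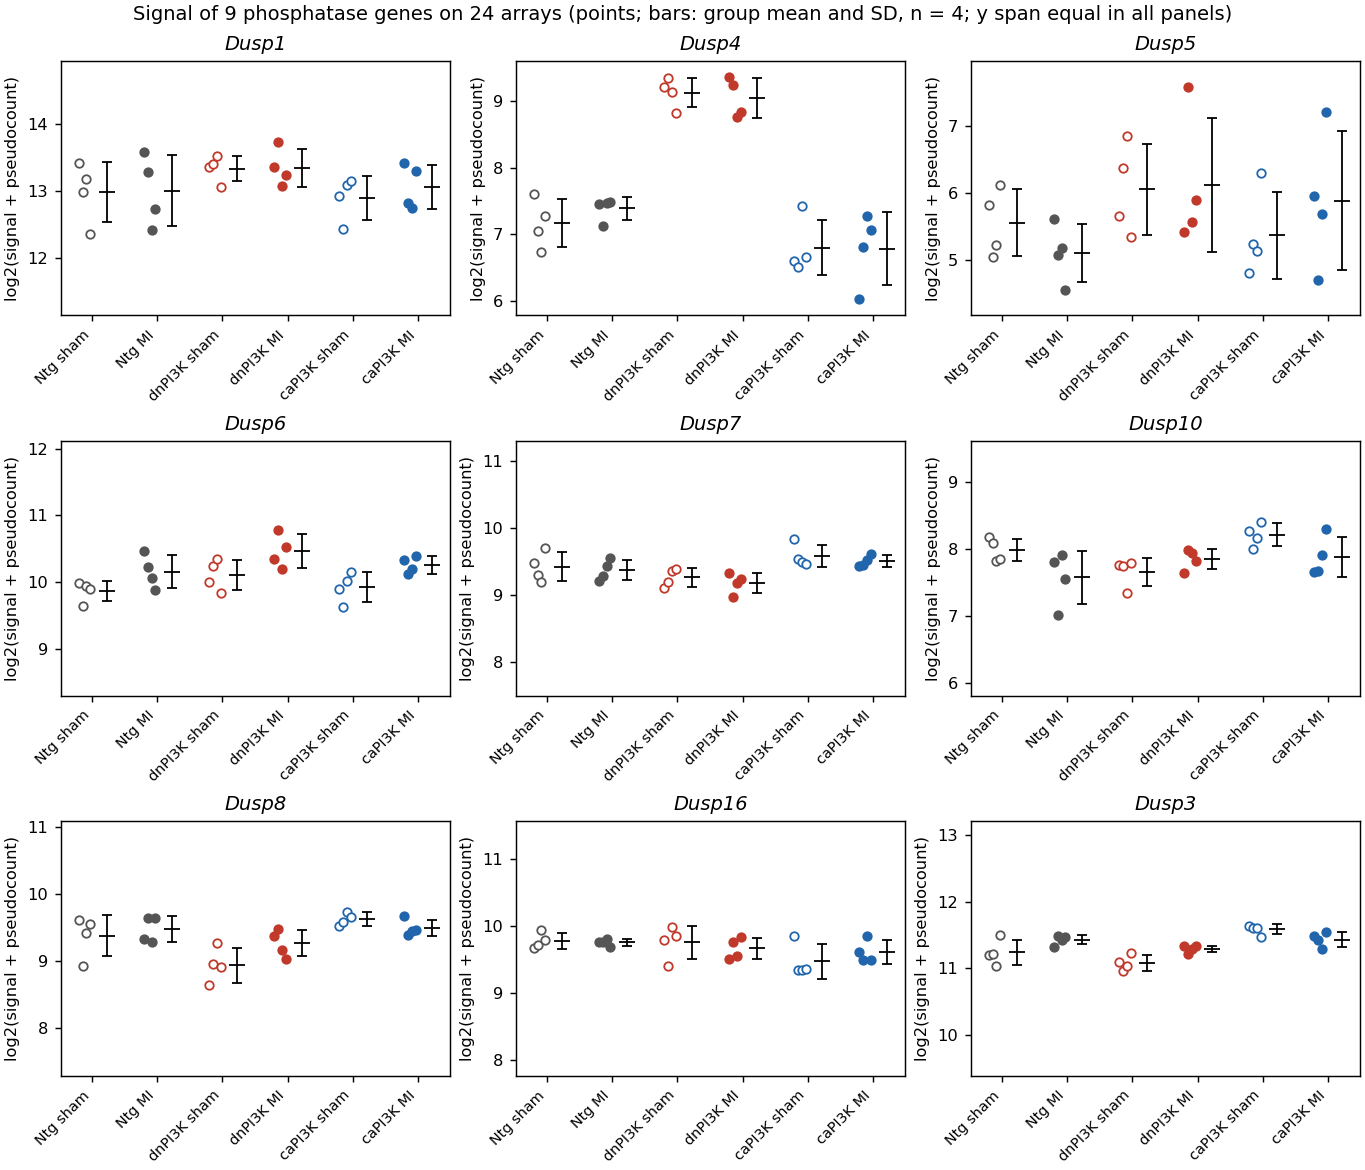
Level of each of the 9 phosphatase genes, as log2 of signal plus the pseudocount, on the 24 arrays (open points: sham; filled points: MI; bars: group mean and SD, n = 4 each). The y axes differ in position but not in span; *Dusp4* sits at 8.75 to 9.35 on the dnPI3K arrays and at 6.03 to 7.60 on all others.

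The group means of *Dusp4*, in order from the highest, were 9.12 ± 0.22 in dnPI3K sham, 9.04 ± 0.30 in dnPI3K MI, 7.39 ± 0.17 in Ntg MI, 7.17 ± 0.36 in Ntg sham, 6.80 ± 0.41 in caPI3K sham and 6.79 ± 0.54 in caPI3K MI hearts (SD, n = 4 each). Of the neighbours in that order, dnPI3K MI and Ntg MI did not overlap, and the arrays of each other neighbouring pair did. In signal units the dnPI3K sham mean was 550 ± 82.5 and the Ntg sham mean 136 ± 37.1 (SD, n = 4). The array carries 1 probe set for *Dusp4*, so no second probe set checks these values.

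The sham groups compare the transgenes without an infarct. Between dnPI3K and Ntg sham hearts, *Dusp4* was the 1 member called of 8, beside 1.14% of all genes. It was higher by 1.95 (SE 0.25, 95% CI 1.44 to 2.47, 3.87-fold, limma adjusted p = 3.74e-05), and 62 genes (0.42%) were called higher there. Its p ranked 12 among the 14763 genes. *Dusp8*, at -0.44 (SE 0.15, limma adjusted p = 0.181), had the next smallest p and was not called. Without Ntg sham replicate 2, *Dusp8* was called at -0.59 (limma adjusted p = 0.0347). *Dusp10* was the other member whose 2 groups did not overlap, at -0.33 (limma adjusted p = 0.594), a separation that 2.97% of all genes showed in that direction.

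Between caPI3K and Ntg sham hearts, limma called 0 of the 8 members and 0.278% of all genes. An unadjusted p under 0.05 was found for 2 members and 1659 genes. *Dusp4* differed by -0.36 (95% CI -0.88 to 0.15, limma adjusted p = 0.632), an interval that holds both no difference and a lower level. *Dusp3* had the smallest p, at 0.34 (SE 0.08, limma adjusted p = 0.0699). It was called with array weights (0.39, adjusted p = 0.0153) and without Ntg sham replicate 4 (0.43, adjusted p = 0.00263), both in limma. *Dusp16*, at -0.30, was the other of the 2 (limma adjusted p = 0.358). Its second probe set went the other way, at 0.87, but was dim, above the 40th percentile on 7 of 24 arrays. Without the 3 caPI3K sham arrays with Y-linked signal, *Dusp3* was at 0.23 (limma adjusted p = 0.905) and *Dusp4* at -0.50 (limma adjusted p = 0.923).

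Between the transgenic sham groups, 3 of 8 members were called, beside 9.9% of all genes. *Dusp4* was lower in caPI3K hearts, with a difference of -2.32 (SE 0.25, 95% CI -2.84 to -1.80, 4.98-fold, limma adjusted p = 4.64e-07). *Dusp8* and *Dusp3* were higher in caPI3K hearts, the direction called for 5.38% of all genes, while 4.52% were called lower. These comparisons share their groups pairwise: the dnPI3K sham arrays enter 2 of the 3, as do the Ntg sham and the caPI3K sham arrays.

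*Dusp8*, known as an enzyme of brain and heart that prefers JNK and p38, read 8.64, 8.95, 9.27 and 8.91 in dnPI3K sham hearts and 9.52, 9.58, 9.74 and 9.66 in caPI3K sham hearts. All 4 caPI3K arrays were above all 4 dnPI3K arrays, and the Ntg sham arrays, at 9.61, 8.93, 9.42 and 9.55, spread over both. The difference between caPI3K and dnPI3K was 0.68 (SE 0.15, 1.61-fold, limma adjusted p = 0.00234). Its 2 other probe sets gave 0.61 and 0.50, and the mean of all 3 was not called (0.60, limma adjusted p = 0.134).

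*Dusp3* read 11.10, 10.96, 11.03 and 11.23 in dnPI3K sham hearts and 11.64, 11.61, 11.61 and 11.47 in caPI3K sham hearts, again with no overlap. The Ntg sham arrays lay between, at 11.20, 11.22, 11.04 and 11.50, and met both groups. The difference between caPI3K and dnPI3K was 0.51 (SE 0.08, 1.42-fold, limma adjusted p = 0.000143), and 2 other probe sets gave 0.83 and 0.59. *Dusp7* and *Dusp10* also had no overlap between these groups, with differences of 0.32 (limma adjusted p = 0.096) and 0.56 (limma adjusted p = 0.0768), and were not called. *Dusp10* was called without Ntg MI replicate 2 (limma adjusted p = 0.0483). *Dusp16*, at -0.28 and at -0.10 by its dim second probe set, was called at -0.41 without caPI3K sham replicate 1 (limma adjusted p = 0.042). The 4 members that were higher without overlap stood beside 8.79% of all genes.

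The 3 caPI3K sham arrays with Y-linked signal bear on this comparison. With them left out, 1 caPI3K sham array remained, assumed to vary like the other groups and numbered 1410, in the same block as the 3. *Dusp4* was then still called at -2.45 (limma adjusted p = 0.000837). *Dusp3* was not called, at 0.39 (limma adjusted p = 0.181), and neither was *Dusp8*, at 0.71 (limma adjusted p = 0.169). *Dusp7* was at 0.20 (limma adjusted p = 0.764) and *Dusp10* at 0.75 (limma adjusted p = 0.336).

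**Figure D2:**
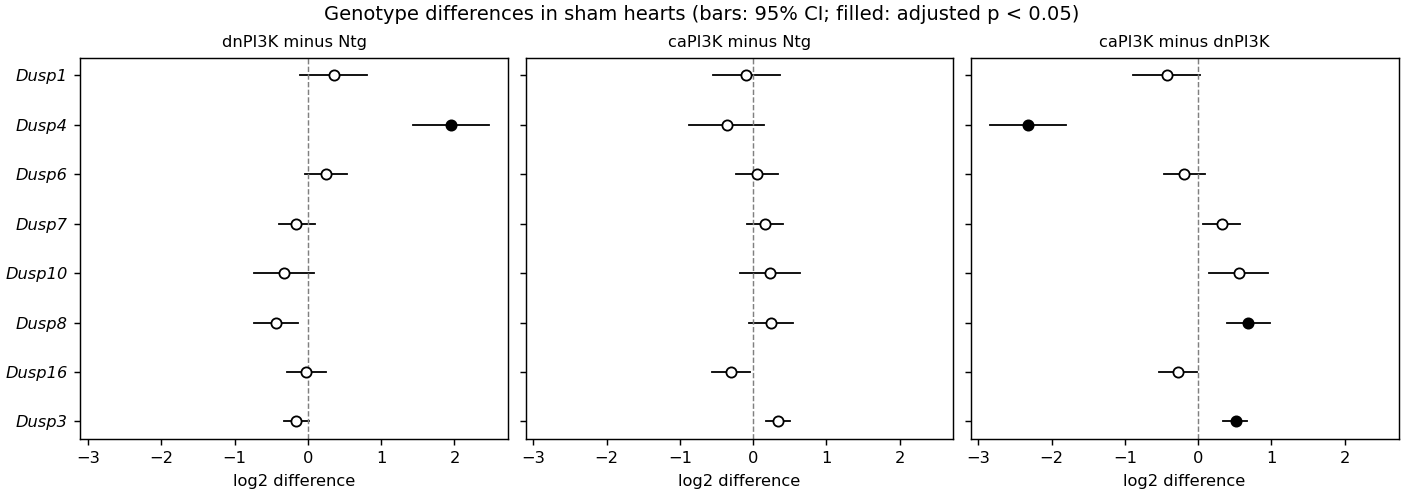
Difference in log2 level between genotypes in sham hearts for the 8 tested members (points; bars: 95% CI of the limma fit; filled: adjusted p below 0.05; n = 4 arrays a group). *Dusp4* is called at 1.95 in dnPI3K against Ntg and at -2.32 in caPI3K against dnPI3K; *Dusp8* and *Dusp3* are called at 0.68 and 0.51 in the latter.

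The infarcted groups repeat the comparison in other hearts. In dnPI3K against Ntg MI hearts, *Dusp4* was again the 1 member called, beside 2.59% of all genes and 0.657% called higher. It was higher by 1.66 (SE 0.25, 95% CI 1.14 to 2.18, 3.15-fold, limma adjusted p = 0.000371). In caPI3K against dnPI3K MI hearts it was the 1 member called, beside 4.23% of all genes and 1.31% called lower, at -2.25 (SE 0.25, 4.76-fold, limma adjusted p = 1.64e-06). Without dnPI3K MI replicate 1, the array with the high median, these differences were 1.55 (limma adjusted p = 0.00204) and -2.15 (limma adjusted p = 1.73e-05).

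Between caPI3K and Ntg MI hearts, limma called 0 of the 8 members and 0 of 14763 genes (0%). An unadjusted p under 0.05 was found for 1 member and 683 genes. That member was *Dusp4*, at -0.59 (95% CI -1.11 to -0.08, limma adjusted p = 0.999). *Dusp3* and *Dusp8*, called between the transgenic sham groups, differed by 0.14 (limma adjusted p = 0.414) and 0.23 (limma adjusted p = 0.464) between caPI3K and dnPI3K MI hearts. The change of the caPI3K against dnPI3K difference with MI was -0.36 for *Dusp3* (95% CI -0.60 to -0.12, limma adjusted p = 0.247) and -0.46 for *Dusp8* (95% CI -0.88 to -0.03, limma adjusted p = 0.446), so neither change was called. Without the caPI3K sham arrays with Y-linked signal these changes were -0.25 (limma adjusted p = 0.876) and -0.49 (limma adjusted p = 0.864).

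*Dusp7*, which encodes a cytoplasmic phosphatase of ERK, held its order in both operations without being called. It read 8.96 to 9.38 on the 8 dnPI3K arrays (median 9.21) and 9.43 to 9.83 on the 8 caPI3K arrays (median 9.51), so all caPI3K arrays were above all dnPI3K arrays. That held for 202 genes, 1.37% of those tested. In MI hearts the difference was 0.33 (SE 0.12, limma adjusted p = 0.137). Its 2 other probe sets gave 0.48 and 0.47 in MI hearts and 0.19 and 0.07 in sham hearts.

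**Figure D3:**
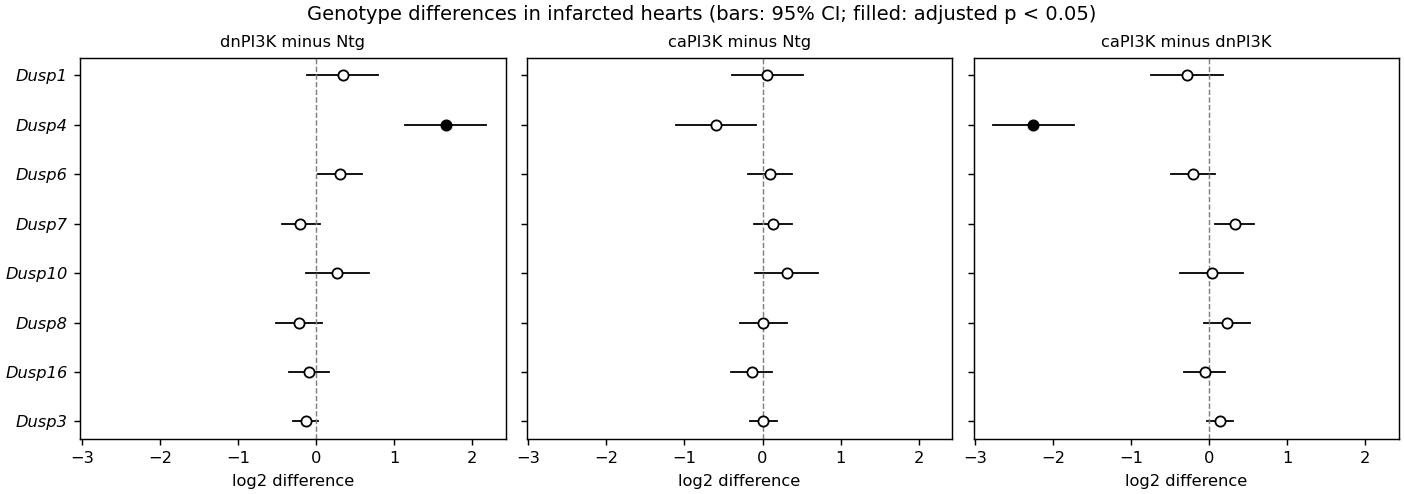
Difference in log2 level between genotypes in infarcted hearts for the 8 tested members (points; bars: 95% CI of the limma fit; filled: adjusted p below 0.05; n = 4 arrays a group). *Dusp4* is the 1 member called, at 1.66 in dnPI3K against Ntg and -2.25 in caPI3K against dnPI3K.

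Infarction itself was compared with the sham operation in each genotype. In Ntg hearts limma called 0 of 8 members beside 0.772% of all genes, with 3 members and 1773 genes at an unadjusted p under 0.05. In dnPI3K hearts limma called 0 of 8 beside 9.37% of all genes, with 3 members and 3232 genes at an unadjusted p under 0.05. In caPI3K hearts it called 0 of 8 beside 1.11%, with 1 member and 1793 genes at an unadjusted p under 0.05. The median difference of the members was 0.06, 0.10 and -0.04 in the 3 genotypes, against -0.005, 0.01 and -0.002 over all genes tested.

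*Dusp6*, the ERK-specific phosphatase MKP-3, which ERK signalling itself induces, had an unadjusted p under 0.05 in each genotype. Its mean was 9.87 ± 0.15 in Ntg sham and 10.16 ± 0.25 in Ntg MI hearts (SD, n = 4), a difference of 0.29 (95% CI 0.01 to 0.58, limma adjusted p = 0.397). In dnPI3K hearts the means were 10.11 ± 0.23 and 10.47 ± 0.26 (SD, n = 4), a difference of 0.36 (limma adjusted p = 0.116). In caPI3K hearts they were 9.93 ± 0.22 and 10.26 ± 0.13 (SD, n = 4), a difference of 0.34 (limma adjusted p = 0.299). That difference was 0.11 (limma adjusted p = 0.981) without the 3 caPI3K sham arrays with Y-linked signal. MI and sham arrays overlapped in each genotype, and the difference did not pass the threshold in any. Between genotypes the differences of *Dusp6* were -0.21 to 0.31 and none was called.

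*Dusp4* was not called after infarction in any genotype. The differences were 0.22 in Ntg (95% CI -0.30 to 0.74), -0.08 in dnPI3K (95% CI -0.59 to 0.44) and -0.01 in caPI3K hearts (95% CI -0.53 to 0.51), with limma adjusted p of 0.809, 0.901 and 0.996. The 3 intervals hold no value as large as the difference between dnPI3K and Ntg hearts. *Dusp3* differed by 0.19 in Ntg (limma adjusted p = 0.349), 0.21 in dnPI3K (limma adjusted p = 0.114) and -0.15 in caPI3K hearts (limma adjusted p = 0.491), the last at -0.04 (limma adjusted p = 0.986) without the arrays with Y-linked signal. Without Ntg sham replicate 4 it was called in Ntg hearts at 0.27 (limma adjusted p = 0.0416). *Dusp8* differed by 0.32 in dnPI3K hearts (limma adjusted p = 0.184) and *Dusp10* by -0.41 in Ntg hearts (limma adjusted p = 0.411).

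**Figure D4:**
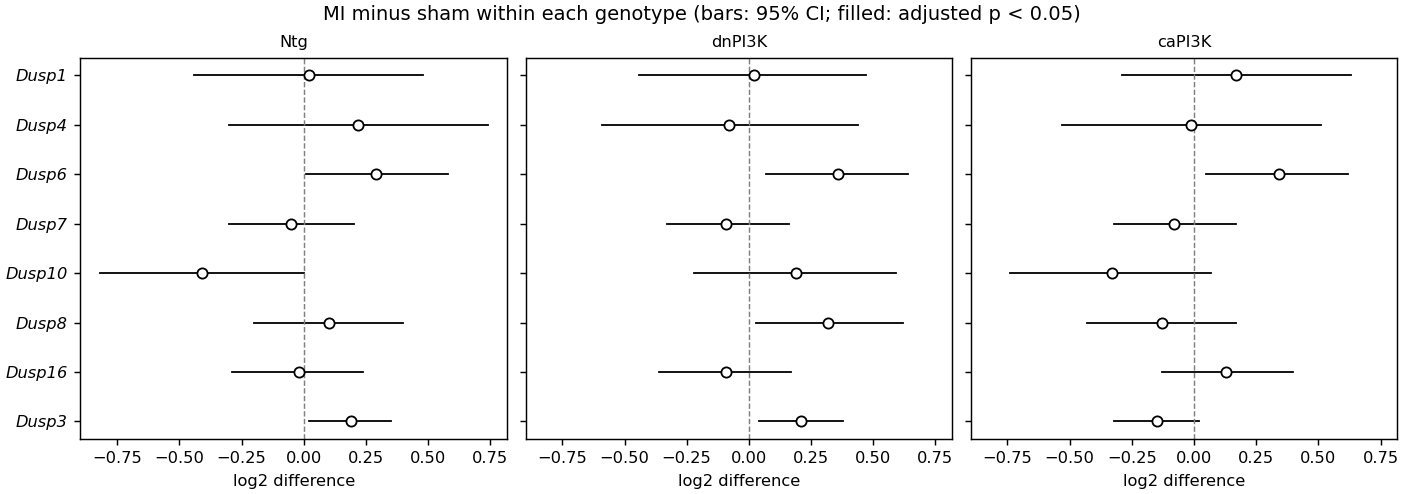
Difference in log2 level, MI minus sham, within each genotype for the 8 tested members (points; bars: 95% CI of the limma fit; n = 4 arrays a group). No point is filled, since none had an adjusted p below 0.05; *Dusp6* is at 0.29, 0.36 and 0.34.

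The differences between genotypes in the effect of infarction were tested as interaction terms. Of the 8 members limma called 0 in each of the 3 tests, beside 0 of 14763 genes (0%). For dnPI3K against Ntg 1 member and 1122 genes had an unadjusted p under 0.05, for caPI3K against Ntg 1 and 817, and for caPI3K against dnPI3K 2 and 1501. For *Dusp4* the interaction of dnPI3K against Ntg was -0.30 (95% CI -1.03 to 0.44, limma adjusted p = 0.903).

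Of the remaining members none was called in any comparison as reported. *Dusp1* (MKP-1), an immediate early gene, had signals of 5250 to 13600. Its group means ran from 12.90 ± 0.33 in caPI3K sham to 13.35 ± 0.28 in dnPI3K MI hearts (SD, n = 4), and the difference of smallest p was -0.43 in caPI3K against dnPI3K sham hearts (limma adjusted p = 0.263), which was -0.17 (limma adjusted p = 0.908) without the arrays with Y-linked signal. *Dusp10* (MKP-5) had group means from 7.58 ± 0.40 in Ntg MI to 8.22 ± 0.17 in caPI3K sham hearts (SD, n = 4). *Dusp16* (MKP-7) had the narrowest range over the arrays, 9.34 to 9.98, on the probe set used. Arrays of neighbouring groups overlapped in the order of levels of each of these 3 genes. *Dusp5*, a nuclear phosphatase of ERK, had signals of 12.2 to 180 and group means of 5.10 to 6.11, near the low end of the scale, and was not tested.

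Of the genes whose pattern over the 24 arrays was most like that of *Dusp4*, the 5 with the highest Pearson r were *Jpt1* (r = 0.911), *Tceal8* (0.910), *Tac1* (0.900), *Septin6* (0.899) and *Slc38a1* (0.893). Spearman's rho was 0.887, 0.857, 0.856, 0.901 and 0.752 in that order. *Tac1* encodes the precursor of substance P, and *Slc38a1* a transporter of glutamine. For *Dusp4* the dnPI3K arrays stood apart from the rest, so r was also taken within each set. It was 0.519, 0.753, -0.598, 0.738 and 0.064 over the 8 dnPI3K arrays, and 0.582, 0.481, 0.657, 0.599 and 0.324 over the other 16. Each r was thus lower within either set than over the 24 arrays, and for *Tac1* the sign within the dnPI3K arrays was the opposite. For *Septin6* the dnPI3K arrays, at 8.35 to 8.71, overlapped the others, of which the highest read 8.53. The 5 genes share the arrays and their scaling with *Dusp4*, and none lies on its chromosome.

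**Figure D5:**
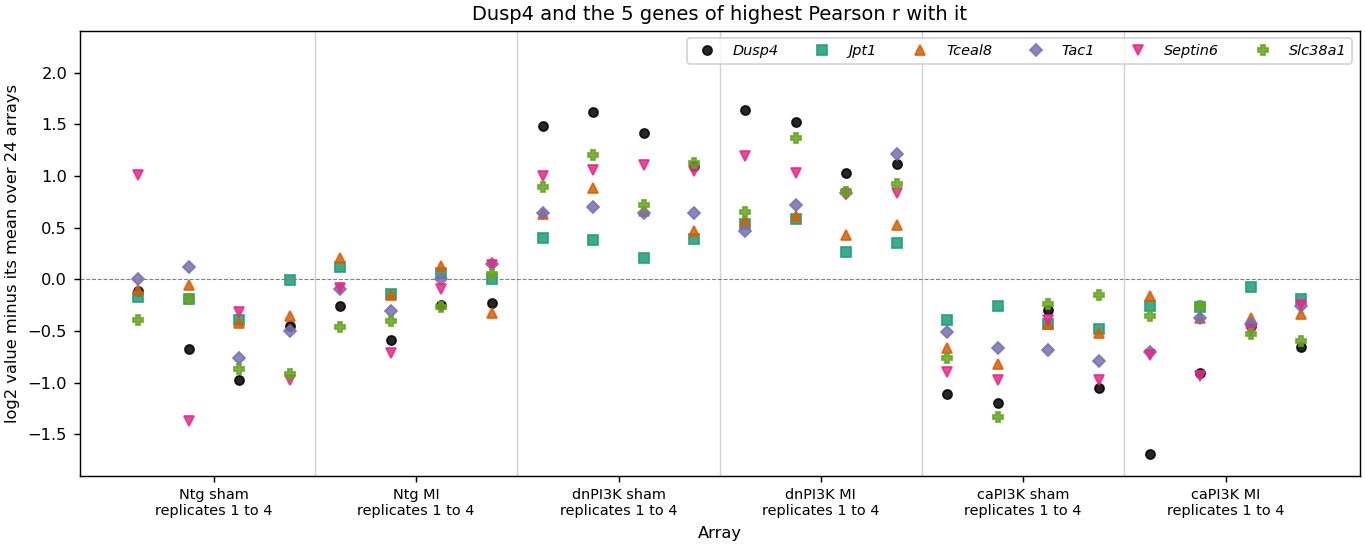
Log2 value minus the gene's own mean over 24 arrays for *Dusp4* and the 5 genes of highest Pearson r with it (x axis: arrays by group, replicates 1 to 4; y axis: centred log2 value). The 6 genes are above 0 on all 8 dnPI3K arrays, some of them also on Ntg arrays, and the dnPI3K points of *Dusp4* lie at 1.031 to 1.633.

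For *Dusp1* the 2 genes of highest r were *Klf2* (0.895) and *Nr4a1* (0.834), both immediate early transcription factors, and r with *Klf2* was 0.854 within the dnPI3K arrays and 0.927 within the others. For *Dusp6* they were *Ctla2a* (0.853) and *Actn4* (0.835). For *Dusp8* they were *St3gal5* (0.868) and *Hsph1* (0.817), and for *Dusp3* *Ankrd23* (0.859) and *Ube2f* (0.850). For *Dusp7* they were *Fam78a* (0.845) and *Park7* (0.804), for *Dusp10* *Abhd11* (0.759) and *Klk1b24* (0.750), and for *Dusp16* the endothelial genes *Thbd* (0.738) and *Flt1* (0.680). These are descriptions over arrays of 6 groups, which share their group differences.

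The kinases and other genes of the same pathways were read from 8 lists with 85 tested genes. They made 28 calls over the 12 comparisons, 2.75% of the tests against 2.45% over all genes, of which 13 held in each of the 24 fits that leave out 1 array. The clearest was *Mapk10*, which encodes JNK3, the JNK of neurons and heart. Its level was 8.18 to 9.34 in dnPI3K sham and 8.60 to 9.14 in dnPI3K MI hearts, against 9.77 to 10.30 and 9.74 to 10.55 in the Ntg groups. In caPI3K sham hearts it was 10.67 to 11.03 and in caPI3K MI hearts 9.78 to 10.79. All 8 dnPI3K arrays were thus below all 16 others for *Mapk10*, with a gap of 0.41, where they were above for *Dusp4*. That pattern was found for 58 genes (0.393%).

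*Mapk10* differed by -1.17 in dnPI3K against Ntg sham hearts (SE 0.22, limma adjusted p = 0.00335) and by -1.24 in MI hearts (SE 0.22, limma adjusted p = 0.00149). In caPI3K against dnPI3K hearts it differed by 1.92 in sham (limma adjusted p = 8.87e-07) and 1.32 in MI hearts (limma adjusted p = 4e-04). In caPI3K against Ntg hearts it was not called. None of these 4 calls of *Mapk10* was lost under the 36 alternatives run. It was the 1 gene called of 11 tested on the JNK list in dnPI3K against Ntg, in both operations. The share of all genes called there was 1.14% in sham and 2.59% in MI hearts. In caPI3K against dnPI3K sham hearts 2 of 11 were called, both higher, beside 9.9% of all genes called and 5.38% called higher. The other, besides *Mapk10*, was *Map2k4* (0.54, limma adjusted p = 0.00478), a kinase that activates JNK. In MI hearts *Map2k4* was at 0.43 (limma adjusted p = 0.0461), and that call was lost in 18 of 24 fits without 1 array.

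On the list of genes that ERK signalling induces or that feed back on it, 20 of 23 were tested. Between caPI3K and dnPI3K sham hearts 2 of the 20 were called, both lower, beside 9.9% of all genes called and 4.52% called lower. *Etv5*, an ETS factor, was at -1.28 (SE 0.21, limma adjusted p = 0.000139) and *Phlda1* at -0.95 (SE 0.20, limma adjusted p = 0.00193). The list's median was -0.30, against -0.002 over all genes. In dnPI3K against Ntg sham hearts *Etv5* was the 1 of 20 called, beside 1.14% of all genes. It was at 0.96 (SE 0.21, limma adjusted p = 0.0153), and the list's median was 0.21. That call was lost without Ntg sham replicate 1 (0.82, limma adjusted p = 0.076) or 2 (0.90, 0.0552), without dnPI3K sham replicate 2 (0.92, 0.0724) or 3 (0.85, 0.0742), and without the 4 sham arrays numbered 415 to 418 in the labels (0.66, 0.623). Without those 4 arrays *Dusp4* was still called, at 1.96 (limma adjusted p = 0.0173). The sources used here do not say what the array numbers stand for. In dnPI3K against Ntg MI hearts limma called 0 of the 20, beside 2.59% of all genes, and the list's median was 0.05. *Etv5* was at 0.27 there (limma adjusted p = 0.592) and *Phlda1* at 0.22 (0.649). In caPI3K against dnPI3K MI hearts limma also called 0 of the 20, beside 4.23%, and the median was -0.07. *Etv5* was at -0.54 there (limma adjusted p = 0.17) and *Phlda1* at -0.36 (0.385).

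On the ERK1/2 list 11 of 18 genes were tested. *Grb2*, an adaptor upstream of Ras, was higher in caPI3K than in dnPI3K hearts by 0.36 in sham (limma adjusted p = 0.00612) and by 0.47 in MI hearts (limma adjusted p = 0.00129). No other comparison of genotypes called a gene of that list except *Map2k2*, at 0.44 in caPI3K against dnPI3K sham hearts (limma adjusted p = 0.0111), lost in 3 of 24 fits without 1 array. In caPI3K against dnPI3K hearts the list thus had 2 of 11 called in sham, beside 9.9% of all genes, and 1 of 11 in MI, beside 4.23%. On the p38 list, 3 of 14 were called higher in caPI3K against dnPI3K sham hearts, beside 5.38% of all genes. Among them was *Tab2* (0.36, limma adjusted p = 0.000606), a partner of the kinase TAK1. *Ppm1a*, a serine/threonine phosphatase that acts on p38 and JNK, was at 0.42 in the same comparison (limma adjusted p = 0.00174). It was the 1 of 8 called there among phosphatases of other families, beside 9.9% of all genes. With the 3 caPI3K sham arrays with Y-linked signal left out, *Mapk10* (1.85, limma adjusted p = 0.00682) and *Phlda1* (-1.57, 0.00209) were still called between caPI3K and dnPI3K sham hearts. *Etv5* (-1.31, limma adjusted p = 0.0558), *Map2k4* (0.47, 0.327), *Grb2* (0.37, 0.256), *Map2k2* (0.42, 0.232), *Tab2* (0.30, 0.23) and *Ppm1a* (0.27, 0.452) were not. The other calls between genotypes were each lost in 5 to 21 of the 24 fits without 1 array. They were *Tab2* in caPI3K against Ntg sham hearts (0.30, and 0.23 without the arrays with Y-linked signal) and *Mef2a* in dnPI3K against Ntg MI hearts (-0.24). In caPI3K against dnPI3K sham hearts they were *Map3k7* (0.36), *Mapk13* (1.75) and *Mef2d* (0.28). The means of *Mapk13* were 6.07 in caPI3K sham and 4.32 in dnPI3K sham hearts, near the low end of the scale.

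After infarction the lists held 8 calls in dnPI3K hearts (9.41% of 85 genes, against 9.37% of all genes), 1 in caPI3K hearts (1.18% against 1.11%) and 0 in Ntg hearts (against 0.772%). These shares are near those over all genes. *Spry1*, a feedback inhibitor of ERK signalling, was higher after MI in dnPI3K hearts by 0.82 (SE 0.18, limma adjusted p = 0.00374). *Mef2a*, a transcription factor that ERK5 and p38 phosphorylate, was lower by -0.30 (SE 0.07, limma adjusted p = 0.00496). These 2 calls held in each fit without 1 array, but *Mef2a* was not called with the mean of all its probe sets (-0.13, limma adjusted p = 0.386) or without the sham arrays numbered 415 to 418 (-0.25, limma adjusted p = 0.0845). The other 6 in dnPI3K hearts were each lost in 2 to 6 of 24 such fits: *Mapk11* (1.85), *Mapk13* (1.79), *Rps6ka3* (0.27) and *Spred2* (0.37) were higher after MI, and *Rps6ka5* (-0.91) and *Dusp23* (-0.70) lower, with limma adjusted p of 0.0158 to 0.0392. *Spred2* turned to -0.13 with the mean of all its probe sets. The means of *Mapk11* were 5.35 in dnPI3K sham and 7.20 in dnPI3K MI hearts, and those of *Mapk13* were 4.32 and 6.11. Both *Mapk13* means and the sham mean of *Mapk11* are near the low end of the scale. *Phlda1* was the call in caPI3K hearts, at 0.96 (SE 0.20, limma adjusted p = 0.0114), and was lost in 3 of 24 such fits. It was still called without the arrays with Y-linked signal (1.58, limma adjusted p = 0.0135). On the list of ERK-induced and feedback genes, limma called 0 of 20 genes after MI in Ntg hearts. An unadjusted p under 0.05 was found for 3 of them and for 1773 of all genes tested. *Dusp2*, the 1 other gene of the family tested, was not called between genotypes. The list of atypical phosphatases did not hold the member *Dusp3*. Of the 13 tested genes of that list limma called 0 between genotypes, with 1 to 5 at an unadjusted p under 0.05. Those comparisons held 683 to 3147 such genes among all tested.

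Markers of cell types were read beside the *Dusp4* result. Of the 7 cardiomyocyte markers limma called 0 between genotypes. In dnPI3K against Ntg sham hearts 0 of them and 1590 of all genes had an unadjusted p under 0.05. In caPI3K against dnPI3K sham hearts these counts were 4 and 3147. The summed signal of the 7 markers was 326000 to 429000 on the Ntg sham and 329000 to 430000 on the dnPI3K sham arrays. On the caPI3K sham arrays it was 322000 to 344000. Of the 7 fibroblast markers *Tcf21* was higher in dnPI3K than in Ntg MI hearts, at 0.60 (limma adjusted p = 0.00435). In caPI3K against dnPI3K hearts it was at -0.60 in sham and -0.45 in MI hearts (limma adjusted p = 0.00114 and 0.0256). The fibroblast list did not move as one: these differences ran from -0.60 to 0.36 in sham and from -0.45 to 0.18 in MI hearts. In dnPI3K against Ntg sham hearts no fibroblast marker was called (smallest limma adjusted p = 0.123). The list's summed signal was 53500 to 89900, 68600 to 79300 and 59500 to 68800 on the Ntg, dnPI3K and caPI3K sham arrays. Of the 4 atrial markers *Nppa*, a natriuretic peptide that ventricles under load also make, was higher in dnPI3K than in Ntg sham hearts by 1.65 (limma adjusted p = 0.000927). *Myl7* and *Myl4* were lower in dnPI3K than in Ntg MI hearts, at -2.01 (limma adjusted p = 0.00572) and -1.30 (limma adjusted p = 0.0265). The atrial list did not move as one: between caPI3K and dnPI3K sham hearts *Nppa* was at -1.86 (limma adjusted p = 4.15e-05) and the median of the 4 markers at 0.76. Its mean log2 value was 11.06, 11.91 and 12.04 in Ntg, dnPI3K and caPI3K sham hearts. Its summed signal, to which *Nppa* adds most, was 13400 to 57700, 59500 to 70400 and 18100 to 34200 on those arrays. Of the 4 smooth muscle markers *Tagln* (-0.51, limma adjusted p = 0.0439) and *Acta2* (-0.48, limma adjusted p = 0.0349) were lower in caPI3K than in dnPI3K MI hearts, where the list's summed signal was 11700 to 12900 and 14500 to 21100. In caPI3K against dnPI3K hearts all 4 were lower, at -0.51 to -0.26 in MI and -0.30 to -0.15 in sham hearts. In dnPI3K against Ntg hearts all 4 were higher, at 0.29 to 0.37 in sham and 0.10 to 0.34 in MI hearts. No marker of the 4 was called there (smallest limma adjusted p = 0.233), and 2 had an unadjusted p under 0.05 in each operation. So had 1590 of all genes in sham and 2239 in MI hearts. The part of these markers in the *Dusp4* result was not tested, and their values without the arrays with Y-linked signal were not computed.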

How the data were processed

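RNA of 24 mouse hearts was measured on Affymetrix arrays. The deposited values are signal values, made with MAS5 per the submitters' processing notes; the sources used here state neither its version nor a scaling target. After trimming 2% at each end the mean signal was 500 on each array, so no further normalization was applied. The 64 control probe sets were dropped. Of all 45101 probe sets 34945 name 1 gene, 932 several and 9160 none in the annotation used, which can be old. Values were taken as log2 of the signal plus 11.2, the median divided by 10. A model with a mean for each of 6 groups was fitted with limma 3.58.1 in R 4.3.3 (files read by the data.table package, version 1.17.8), with an intensity trend and 18 residual degrees of freedom, for 12 comparisons. Figures were drawn with matplotlib 3.10.9 in Python 3.11.15. The code was tested on simulated data.

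Members, lists and tests were chosen with earlier results of these data known. Named were the 9 members, the 5 genes of highest r with Dusp4 and 2 for each other member, and called genes of the pathway lists, at most the 4 of smallest adjusted p per list and comparison. Alternatives were the pseudocount, the filter, quantile normalization, the trend, array weights, fits of only the groups compared, the mean of all probe sets, array numbers, the arrays with Y-linked signal, and each array left out in turn. The number of arrays limits the precision.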

Additional observations from a re-analysis of the deposited data

Results flagged for a closer look

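In 4 of the 54 sets of 4 arrays (9 members in 6 groups), 1 array stood far from the other 3, with a gap, as a share of the set's whole range, above Dixon's 95% critical value. Chance passes that value in about 1 in 20 sets. *Dusp4* was low on Ntg MI replicate 2, at 7.13 against 7.46 to 7.48 (gap 0.916 of the range). *Dusp4* was high on caPI3K sham replicate 3, at 7.42 against 6.52 to 6.67 (gap 0.834 of the range), which is still below all dnPI3K arrays. *Dusp10* was low on dnPI3K sham replicate 3, at 7.35 against 7.75 to 7.79 (gap 0.895 of the range). *Dusp16* was high on caPI3K sham replicate 1, at 9.85 against 9.34 to 9.35 (gap 0.981 of the range).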

How the results depend on the processing

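The counts of members called were recomputed under 12 other settings and with each of 24 arrays left out, and 427 of 432 such counts stayed within 1.5 times the reported one. The count for caPI3K against dnPI3K sham hearts fell from 3 to 1, *Dusp4*, without the caPI3K sham arrays with Y-linked signal, which leaves 1 array in that group. With array weights the count for caPI3K against Ntg sham hearts was 1, *Dusp3*. With 1 array left out the count ran from 0 to 1 for MI in Ntg hearts and for caPI3K against Ntg sham hearts, and from 1 to 2 for dnPI3K against Ntg sham hearts. *Dusp4* kept its 4 calls throughout. Its difference ran from 1.67 to 2.04 over the other settings for dnPI3K against Ntg sham hearts and from 1.43 to 1.72 in MI hearts, and for caPI3K against dnPI3K from -2.45 to -1.93 in sham and from -2.37 to -1.86 in MI hearts. *Spred2* after MI in dnPI3K hearts went from 0.37 to -0.13 (limma adjusted p = 0.795) with the mean of all probe sets; the cause was not tested. *Dusp4* has 1 probe set and *Dusp5* signal near background, which limits both. No paired analysis was possible because the labels give no replicate numbers that groups share.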
